A study of Homo sapiens with 18 samples.

Results

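The genes described here belong to the Hippo pathway, which acts through the transcriptional coactivators YAP and TAZ. They were YAP1 and WWTR1, which encode YAP and TAZ, their DNA-binding partner TEAD1, the target genes CCN1, CCN2, ANKRD1 and AXL, and the regulators AMOTL1, AMOTL2 and LATS2. All 10 were found by Entrez number among the 18475 genes of the table. The group was selected on values of A549 cells, because CCN1 and ANKRD1 were the most lowered genes there after irradiation, with ranks 1 and 2 of 11993 genes. The comparison of irradiated with control A549 cells is therefore given as a description, with no test of the 10 genes. The selection used no threshold.

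RNA-seq was performed on BEAS-2B, an immortalized human bronchial epithelial line, A549, a human lung adenocarcinoma line, and H446, a human small cell lung cancer line. In each line, 3 control libraries were set against 3 libraries of cells taken 24 h after a single dose of 10 Gy of X-rays, 18 libraries in 6 groups. The question was how the radiation response of lung epithelial cells differs from that of lung cancer cells. The control libraries are titled "before" and the irradiated ones "after", and no harvest time is given for the controls. Whether time in culture also differed between the groups is not known and was not tested. The labels do not say whether the libraries of a group came from separate cultures. The study's methods state only in general that experiments were repeated, so p-values here measure the spread between these libraries, which may be technical.

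Values are FPKM, which correct for transcript length and library size, so that levels can be set beside each other between genes. A log2 fold change is a difference of means of log2(FPKM + 1), which understates the change of genes with low values. Total FPKM per library was between 461255 and 529936. The number of reads is not known from such values, and no counting interval is given. Differences were tested with limma across all genes that reached 1 FPKM in 3 or more of a line's 6 libraries, and a gene was called higher or lower at a Benjamini-Hochberg adjusted p under 0.05. With 3 libraries against 3, an exact permutation test of 1 gene cannot go below a p of 0.10. All samples were bulk RNA, in which fewer cells of a kind and less RNA per cell cannot be told apart.

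Some libraries stood apart or went against what their label would lead one to look for. CDKN1A and MDM2, p53 target genes read here as a check of irradiation and not part of the gene lists, had 309.7 and 487.8 FPKM (CDKN1A) and 47.5 and 87.8 FPKM (MDM2) in BEAS-2B 10 Gy replicates 1 and 3. In irradiated BEAS-2B library 2, as numbered by its label, they had 102.2 and 16.2 FPKM, close to the controls, which had 79.9, 86.4 and 86.1 FPKM of CDKN1A and 18.9, 17.5 and 18.2 FPKM of MDM2. For each of the 10 genes, the BEAS-2B fold change is given with and without that library. In A549 cells CDKN1A had 100.7, 106.2 and 102.8 FPKM in the controls and 317.9, 293.8 and 297.4 FPKM after irradiation. MDM2 there had 28.4, 25.8 and 25.6 FPKM against 89.6, 101.6 and 87.0 FPKM. In H446 cells CDKN1A had 75.7, 72.8 and 71.7 FPKM in the controls and 72.4, 63.6 and 65.8 FPKM after irradiation, so that the groups overlapped and no irradiated value was above the highest control. The same held for MDM2, with 11.6, 12.1 and 11.2 FPKM against 11.8, 10.4 and 9.94 FPKM. The H446 groups were also separated along GC content. Across genes, the Spearman correlation of a library's deviation from the line mean with transcript GC content was 0.46, 0.40 and 0.35 in the H446 controls and -0.11, -0.47 and -0.50 in the irradiated libraries. In BEAS-2B it spread more widely and did not separate the groups, at -0.63, 0.01 and -0.38 for control libraries against 0.45, 0.70 and -0.31 for irradiated ones, and in A549 it lay between -0.13 and 0.17.

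The labelled cell types were set against markers. The neuroendocrine markers CHGA, SYP and NCAM1 all had a mean below 1 FPKM in H446 controls, with SYP the highest at 0.19, and the 3 summed to 0.15, 0.29 and 0.19 FPKM. The identity of the line labelled H446, on which most tested results rest, is in doubt from these low values and was not tested. NEUROD1 and INSM1 were not found among the genes of the table and could not be read. The 6 epithelial markers summed to 3882, 3868 and 3998 FPKM in H446 controls and to 3608, 3424 and 3335 FPKM after irradiation, with KRT8 the most abundant and CDH1 below 1 FPKM. They summed to 1713, 1798 and 1749 FPKM in control and 1485, 1528 and 1435 FPKM in irradiated A549 libraries, and to 1310, 1381 and 1306 FPKM in control and 1424, 1506 and 1412 FPKM in irradiated BEAS-2B libraries. Not every marker followed the lower A549 sum. There KRT8 had means of 533 FPKM in control and 566 FPKM in irradiated libraries, and CDH1 had 7.05 and 10.3 FPKM. In A549 controls all 5 alveolar markers had a mean below 1 FPKM, with NAPSA the highest at 0.69. Of 5 mesenchymal markers VIM was the most abundant, at a mean of 898 FPKM in BEAS-2B, 1471 in A549 and 990 in H446 controls, while COL1A2 was below 1 FPKM in all. Of the blood and vessel markers, PTPRC was at 0.04 or below in the 3 control groups, CD68 was at 9.74, 27.6 and 8.56 FPKM in BEAS-2B, A549 and H446 controls, and PECAM1 was at 3.81 FPKM in H446 controls and below 1 FPKM in the other lines.

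In the Hippo pathway, the kinases MST1 and MST2 activate LATS1 and LATS2, which phosphorylate YAP and TAZ and keep them out of the nucleus. Unphosphorylated YAP and TAZ enter the nucleus and bind TEAD factors on DNA, switching on genes of growth, adhesion and extracellular matrix such as CCN1, CCN2 and ANKRD1. Several regulators, among them LATS2 and AMOTL2, are themselves targets, which closes a feedback loop, and in lung epithelium the pathway is known for its part in growth and repair. The activity of YAP and TAZ is set largely at the protein level, which mRNA values do not show.

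Promoter sequences from RefSeq (GRCh38.p14) were read for 8 of the 10 genes, and not for CCN1 and TEAD1. The 250 bases before the start were searched on both strands for the TEAD motif GGAATG, the AP-1 motif TGANTCA and, by name, the CArG box of serum response factor. The TEAD motif was found in 3 of 8 promoters (YAP1, CCN2 and ANKRD1), against 11.9% of 27305 RefSeq promoters. The AP-1 motif was found in 1 of 8 (ANKRD1), against 6.6%, and the CArG box in 0 of 8, against 1.1%. A match is a run of letters and no proof of binding. The sequences of CCN2 and ANKRD1 are shown since these genes had some of the largest A549 differences. CCN2 held 3 TEAD motifs, at -169, -104 and -95 from the start, in chr6:131951374-131951622 on the minus strand. ANKRD1 held TEAD motifs at -220 and -128 and an AP-1 motif at -195. Its first 62 bases, chr10:90921276-90921337 on the minus strand, lie outside the annotated transcript but for the last base. Only these 62 bases are shown, and the motif at -128 lies further on, within the annotated gene. YAP1 held 1 TEAD motif at -162. Capitals mark the motifs, 5′ to 3′.
CCN2: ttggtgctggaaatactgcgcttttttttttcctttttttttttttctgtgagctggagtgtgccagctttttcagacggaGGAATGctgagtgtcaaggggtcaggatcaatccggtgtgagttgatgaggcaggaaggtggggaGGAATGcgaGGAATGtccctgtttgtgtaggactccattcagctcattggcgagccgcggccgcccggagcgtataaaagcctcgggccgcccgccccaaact
ANKRD1: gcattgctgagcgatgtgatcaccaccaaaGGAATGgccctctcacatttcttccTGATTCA

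Irradiated H446 cells had higher levels of 5 of the 10 genes and a lower level of 1 at an adjusted p under 0.05, and 4 did not pass. Without H446 control replicate 3 or without 10 Gy replicate 3, 3 of the 10 passed. Of all 11479 genes tested in H446, 38.4% passed, 14.8% as higher and 23.6% as lower. The groups did not overlap for 6 of the 10 genes with irradiated libraries higher, against 20.4% of all genes tested, and for 1 with them lower, against 29.9%. In all genes the share of higher calls among called genes was 38.5%, and it became 49.8% with quantile normalization and 51.6% with the GC trend removed. In BEAS-2B cells 0 of the 10 genes and 0 of 11734 genes tested (0%) passed (limma), with 1446 genes and 1 of the 10 at an unadjusted p under 0.05. Without irradiated BEAS-2B library 2, 233 genes passed and again 0 of the 10. In the fit of all 18 libraries 842 genes passed in BEAS-2B, and 0 of the 10. With a block for the replicate number 439 genes passed, and 1 of the 10 (CCN2). The BEAS-2B groups overlapped for all 10 genes, while 7.48% of genes tested lay higher and 8.87% lower with no overlap. In A549 cells, where the group was selected, 7 of the 10 had irradiated libraries below all controls (29.5% of genes tested), 2 above (29%) and 1 overlapped.

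**Figure D1:**
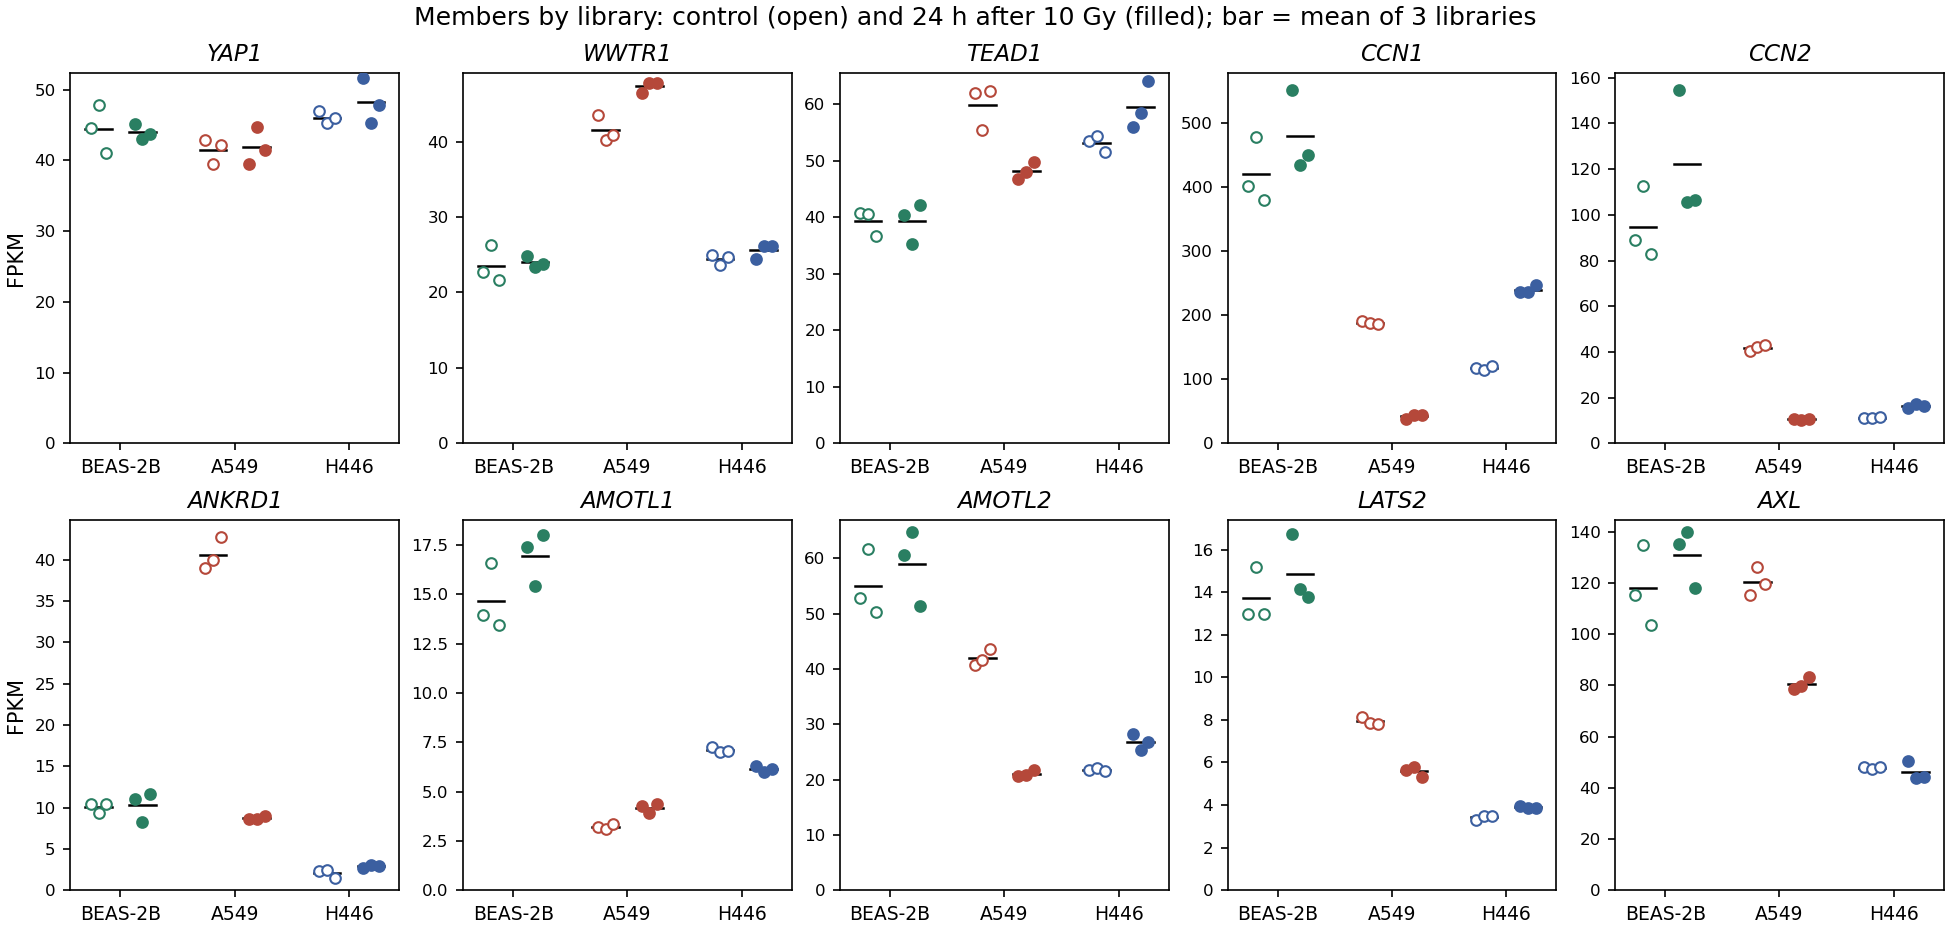
FPKM of each gene in every library (vertical axis from 0, 1 panel per gene), with controls open, irradiated libraries filled and a bar at the mean of 3 libraries. CCN1, CCN2, ANKRD1 and AMOTL2 lie lower in all irradiated A549 libraries and higher in all irradiated H446 libraries than in the controls of the line, and the BEAS-2B groups overlap for every gene.

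The effectors are described first. YAP1, which encodes the coactivator YAP, lies at chr11:102110461-102233423 (GRCh38, GENCODE 29, as are all gene positions here). In H446 cells it had 46.9, 45.2 and 45.9 FPKM in the controls and 51.7, 45.3 and 47.9 FPKM after irradiation. The groups overlapped, and the log2 fold change was 0.07 (95% confidence interval -0.04 to 0.17, adjusted p 0.303). In BEAS-2B cells YAP1 had 44.6, 47.8 and 41.0 FPKM in the controls and 45.1, 43.0 and 43.8 FPKM after irradiation. Its log2 fold change there was -0.01 (interval -0.18 to 0.16, adjusted p 0.957), and 0.00 without irradiated BEAS-2B library 2. In A549 cells YAP1 had 42.8, 39.6 and 42.2 FPKM in the controls and 39.5, 44.8 and 41.5 FPKM after irradiation, which overlapped. Ordered by mean, the 6 groups ran from 48.3 FPKM in irradiated H446 to 41.5 FPKM in control A549 cells, and each neighbour in this order overlapped with the next.

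WWTR1, which encodes TAZ, the paralogue of YAP, lies at chr3:149517235-149736714. In A549 cells it had 43.5, 40.2 and 40.8 FPKM in the controls and 46.5, 47.7 and 47.7 FPKM after irradiation, with no overlap. The log2 difference was 0.18. In H446 cells its means were 24.4 ± 0.739 and 25.6 ± 0.948 FPKM (SD, n = 3 each), a log2 fold change of 0.07 (interval -0.03 to 0.16, adjusted p 0.261). In BEAS-2B cells they were 23.5 ± 2.43 and 24.0 ± 0.73 FPKM (SD, n = 3 each), a log2 fold change of 0.03 (interval -0.16 to 0.22, adjusted p 0.896), and 0.05 without irradiated BEAS-2B library 2. Both A549 groups lay above the other 4 groups, which overlapped with their neighbours in order.

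TEAD1, a transcription factor through which YAP and TAZ bind DNA, lies at chr11:12674591-12944483. In A549 cells it had 61.9, 55.5 and 62.3 FPKM in the controls and 46.8, 48.0 and 49.8 FPKM after irradiation. In H446 cells it had 53.5, 54.4 and 51.5 FPKM in the controls and 55.9, 58.5 and 64.0 FPKM after irradiation. The irradiated libraries thus lay below all controls in A549 and above all controls in H446 cells. The log2 difference was -0.31 in A549, and in H446 the log2 fold change was 0.16 (standard error, SE, 0.05 and adjusted p 0.0274). The H446 result passed in 8 of 15 other fits, with an adjusted p between 0.00884 and 0.0967. It no longer passed without H446 control replicate 1 (0.0637), control replicate 3 (0.0945) or 10 Gy replicate 3 (0.0866), nor with no filter (0.0685), no trend in limma (0.0626), all 18 libraries in 1 fit (0.0967) or the GC trend removed (0.0855). In BEAS-2B cells the means were 39.4 ± 2.35 and 39.4 ± 3.6 FPKM (SD, n = 3 each), with a log2 fold change of -0.00 (adjusted p 0.989), and 0.07 without irradiated BEAS-2B library 2. Control A549 and irradiated H446 cells had the highest TEAD1 levels and overlapped, and both BEAS-2B groups had the lowest.

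The target genes come next. CCN1, at chr1:85580761-85583962, encodes a secreted matrix-associated protein and is a widely used readout of YAP and TAZ. In A549 cells it had 191.1, 187.7 and 186.4 FPKM in the controls and 38.3, 43.9 and 44.0 FPKM after irradiation. Among H446 libraries it had 118.4, 114.1 and 120.5 FPKM in the controls and 236.7, 236.9 and 247.1 FPKM after irradiation. In BEAS-2B cells it had 402.5, 478.5 and 380.3 FPKM in the controls and 552.3, 435.2 and 450.7 FPKM after irradiation. The groups did not overlap in either cancer line, where irradiated A549 libraries were the low ones and irradiated H446 libraries the high ones, and they overlapped in BEAS-2B. The mean of A549 controls was 4.48 times that of irradiated A549 cells, a log2 difference of -2.14. In H446 cells the mean after irradiation was 2.04 times that of the controls, a log2 fold change of 1.02 (SE 0.04, adjusted p 4.54e-08). All 3 irradiated H446 libraries were higher than all controls, and CCN1 passed in all 15 other fits, with a log2 fold change up to 1.07, reached with the GC trend removed. In BEAS-2B cells the log2 fold change was 0.19 (interval -0.07 to 0.44, adjusted p 0.511), and 0.25 without irradiated BEAS-2B library 2 (adjusted p 0.472). It was 0.08 without BEAS-2B 10 Gy replicate 1, and between 0.08 and 0.28 over the 15 other fits, none of which passed. By mean FPKM the order was BEAS-2B 10 Gy (479), BEAS-2B control (420.0), H446 10 Gy (240.0), A549 control (188), H446 control (118) and A549 10 Gy (42.1), and among neighbours only the BEAS-2B groups overlapped.

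CCN2, at chr6:131948176-131951373, encodes connective tissue growth factor, a matricellular protein. In A549 cells it had 40.6, 42.0 and 43.2 FPKM in the controls and 10.5, 10.4 and 10.6 FPKM after irradiation. Among H446 libraries it had 11.01, 11.1 and 11.4 FPKM in the controls and 15.4, 17.2 and 16.2 FPKM after irradiation. In BEAS-2B cells it had 89.0, 112.4 and 83.0 FPKM in the controls and 154.7, 105.5 and 106.6 FPKM after irradiation. As for CCN1, irradiated libraries were low in A549 and high in H446 with no overlap, and in BEAS-2B control replicate 2 lay above 2 of the irradiated libraries. The log2 difference in A549 was -1.90. In H446 the log2 fold change was 0.51 (SE 0.05, adjusted p 6.03e-05), and it passed in all 15 other fits, with values between 0.47 and 0.57. In BEAS-2B it was 0.35 (interval 0.02 to 0.69, adjusted p 0.394, unadjusted p 0.0422 from limma), and 0.45 without irradiated BEAS-2B library 2 (adjusted p 0.264). It was 0.17 without BEAS-2B 10 Gy replicate 1 (adjusted p 0.885), and between 0.17 and 0.48 over the 15 other fits. Of these 1 passed, the limma fit with a block for the replicate number (0.35, adjusted p 0.0484). Control levels ran from 94.8 ± 15.5 FPKM in BEAS-2B over 42.0 ± 1.34 in A549 to 11.2 ± 0.189 in H446 (SD, n = 3 each), with no overlap. Irradiated A549 cells, at a mean of 10.5 FPKM, lay below H446 controls.

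ANKRD1, at chr10:90912096-90921276, encodes an ankyrin repeat protein of muscle and stressed cells that shuttles to the nucleus. In A549 cells it had 38.9, 39.9 and 42.7 FPKM in the controls and 8.57, 8.60 and 9.02 FPKM after irradiation. Among H446 libraries it had 2.36, 2.46 and 1.52 FPKM in the controls and 2.73, 3.07 and 2.93 FPKM after irradiation. In BEAS-2B cells it had 10.5, 9.31 and 10.5 FPKM in the controls and 10.99, 8.28 and 11.7 FPKM after irradiation. The A549 controls stood alone at the top of the 6 groups, and irradiated A549 libraries lay just below the BEAS-2B controls with no overlap between these neighbours. The mean of A549 controls was 4.64 times that of irradiated A549 cells, a log2 difference of -2.09. In H446, at low levels, the log2 fold change was 0.34 (SE 0.11, adjusted p 0.0359), and it passed in 9 of 15 other fits (adjusted p between 0.0135 and 0.103). It no longer passed without H446 control replicate 3 (log2 fold change 0.20, adjusted p 0.0997) or without 10 Gy replicate 1 (0.0501), 2 (0.0925) or 3 (0.0816), nor with no filter (0.103) or the GC trend removed (0.0615). In BEAS-2B it was 0.02 (interval -0.24 to 0.28, adjusted p 0.957), and 0.16 without irradiated BEAS-2B library 2, with values between -0.07 and 0.16 over the 15 other fits.

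AXL, at chr19:41219203-41261766, encodes a receptor tyrosine kinase for the ligand GAS6. In A549 cells it had 115.2, 126.5 and 119.6 FPKM in the controls and 78.8, 79.7 and 83.5 FPKM after irradiation. The irradiated A549 libraries were all below the controls, and the log2 difference was -0.57. In H446 cells AXL had 48.1, 47.4 and 48.3 FPKM in the controls and 50.3, 44.0 and 44.3 FPKM after irradiation, which overlapped because 10 Gy replicate 1 lay above every control. Its log2 fold change there was -0.05 (interval -0.17 to 0.06, adjusted p 0.414), and without H446 10 Gy replicate 1 it was -0.12 (adjusted p 0.0238). In BEAS-2B it was 0.16 (interval -0.08 to 0.39, adjusted p 0.546), and 0.11 without irradiated BEAS-2B library 2, with values between 0.07 and 0.26 over the 15 other fits. Control levels were alike in A549 (120.5 ± 5.68 FPKM) and BEAS-2B (118 ± 15.9 FPKM), whose libraries overlapped, and lower in H446 (47.9 ± 0.497 FPKM, SD, n = 3 each).

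The regulators comprised a pair of angiomotin family scaffolds, which bind YAP and hold it in the cytoplasm, and a kinase. AMOTL2, at chr3:134355874-134375479, had 40.8, 41.7 and 43.6 FPKM in A549 controls and 20.6, 20.8 and 21.7 FPKM after irradiation. Among H446 libraries it had 21.7, 22.03 and 21.6 FPKM in the controls and 28.3, 25.3 and 26.8 FPKM after irradiation. Irradiated libraries were again low in A549 and high in H446, without overlap. The log2 difference was -0.96 in A549, and in H446 the log2 fold change was 0.29 (SE 0.05, adjusted p 0.00101). The H446 result passed in all 15 other fits, with values between 0.25 and 0.40, the last with the GC trend removed. In BEAS-2B, where controls had 52.8, 61.8 and 50.3 FPKM and irradiated libraries 60.7, 64.8 and 51.5 FPKM, the log2 fold change was 0.10 (interval -0.13 to 0.33, adjusted p 0.696). Without irradiated BEAS-2B library 2 it was 0.03, and it was between 0.01 and 0.19 over the 15 other fits. Levels were highest in BEAS-2B, and H446 controls overlapped with irradiated A549 cells at the bottom of the order.

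AMOTL1, at chr11:94706431-94876753, differed from AMOTL2 in direction. It had 3.20, 3.1 and 3.38 FPKM in A549 controls and 4.26, 3.90 and 4.39 FPKM after irradiation. Among H446 libraries it had 7.26, 7.03 and 7.06 FPKM in the controls and 6.31, 5.98 and 6.14 FPKM after irradiation. In BEAS-2B cells it had 13.9, 16.6 and 13.4 FPKM in the controls and 17.4, 15.4 and 18.03 FPKM after irradiation. Irradiated libraries were all higher than controls in A549, all lower in H446, and overlapped with controls in BEAS-2B. The log2 difference in A549 was 0.29. In H446 AMOTL1 was lower, with a log2 fold change of -0.18 (SE 0.05, adjusted p 0.021), which passed in 7 of 15 other fits (adjusted p between 0.0118 and 0.0856). The call was lost without H446 control replicate 1 (0.074), 2 (0.0541) or 3 (0.0536) and without 10 Gy replicate 2 (0.064) or 3 (0.0502). It was also lost with quantile normalization (-0.12, adjusted p 0.0856), with equal totals (0.0515) and with all 18 libraries in 1 fit (0.0751), and it held with the GC trend removed (-0.15, adjusted p 0.0387). In BEAS-2B the log2 fold change was 0.20 (interval -0.02 to 0.42, adjusted p 0.427), and 0.26 without irradiated BEAS-2B library 2 (adjusted p 0.304).

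LATS2, at chr13:20973032-21061547, encodes the kinase that phosphorylates YAP and TAZ. It had 8.13, 7.84 and 7.81 FPKM in A549 controls and 5.65, 5.81 and 5.30 FPKM after irradiation, a log2 difference of -0.44. Among H446 libraries it had 3.30, 3.48 and 3.49 FPKM in the controls and 3.94, 3.88 and 3.87 FPKM after irradiation. All irradiated libraries lay below the controls in A549 and above them in H446. The H446 log2 fold change was 0.15 (interval 0.01 to 0.28, adjusted p 0.0842), short of the threshold. It passed in 3 of 15 other fits, those with quantile normalization (0.23, adjusted p 0.015), no trend in limma (adjusted p 0.0258) and the GC trend removed (0.21, adjusted p 0.0225). In BEAS-2B LATS2 was at 13.7 ± 1.26 FPKM in the controls and 14.9 ± 1.61 FPKM after irradiation (SD, n = 3 each), a log2 fold change of 0.11 (interval -0.11 to 0.32, adjusted p 0.642), and 0.14 without irradiated BEAS-2B library 2. It was 0.03 without BEAS-2B 10 Gy replicate 1 and 0.18 without control replicate 2, the ends of the range over the 15 other fits. BEAS-2B controls had the most LATS2 among control groups, A549 came next and H446 last, with no overlap.

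**Figure D2:**
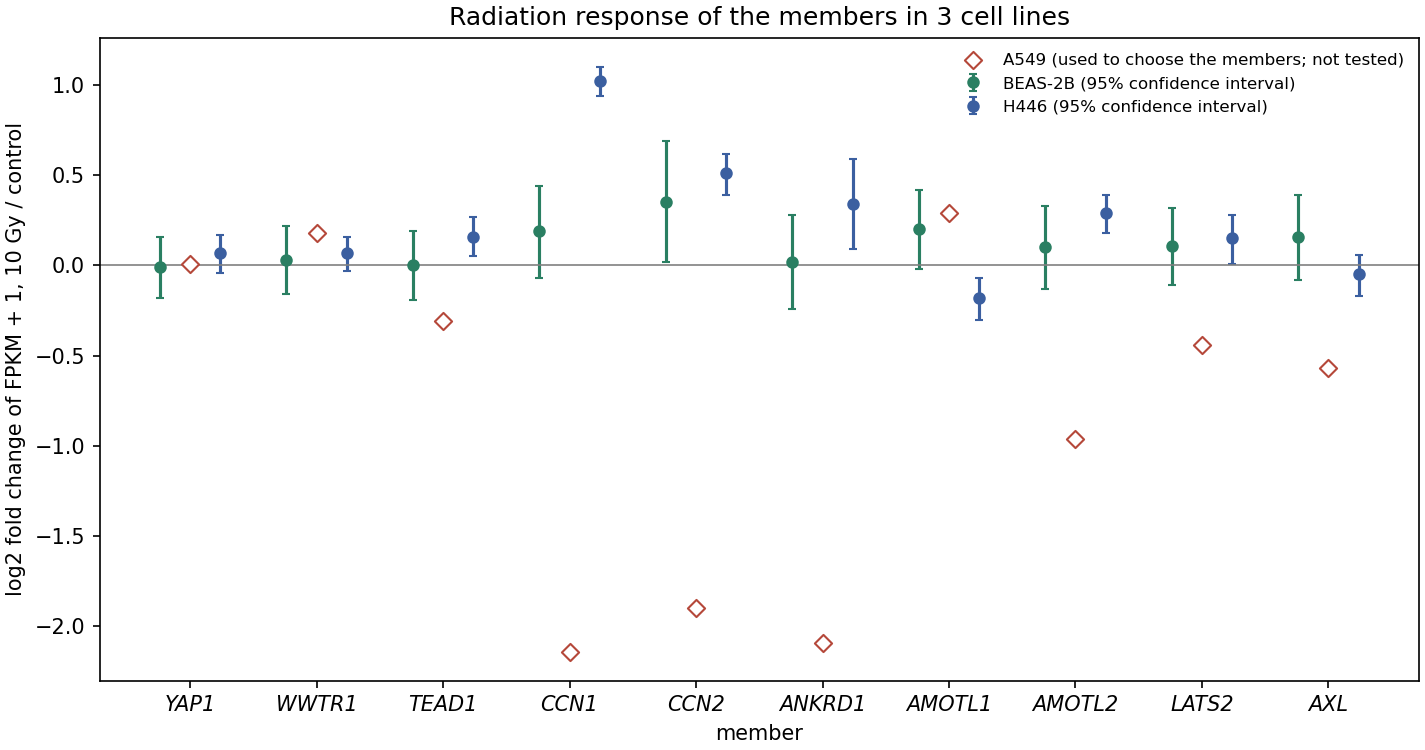
Log2 fold change of FPKM + 1 after 10 Gy (vertical axis) of each gene in BEAS-2B and H446 cells, with 95% confidence intervals from limma, and in A549 cells as values only, since A549 was used to choose the genes. CCN1 lies at 1.02 in H446 and -2.14 in A549, and the YAP1 values of the 3 lines lie between -0.01 and 0.07.

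Counting may have split or joined reads for some of these genes. Exons of YAP1, WWTR1, CCN2, AMOTL1 and AXL overlap a gene on the opposite strand in GENCODE 29 (AP000942.2, WWTR1-AS1, AL133346.1, AP002383.2 and AC011510.1), and AMOTL2 overlaps RPL39P5 on the same strand. Whether reads were counted by strand is not given in the sources used here, so reads of these partners cannot be told apart from those of the genes.

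A difference in response between BEAS-2B and H446 cells was tested directly, in 1 fit of all 18 libraries. The response differed for 2 of the 10 genes, with 1 higher and 1 lower in BEAS-2B, against 22.7% of 13071 genes tested, 13.7% as higher and 8.99% as lower. Of all genes, 2971 were called, against 1811 without BEAS-2B control replicate 1 and 4532 without BEAS-2B 10 Gy replicate 3 (4 of the 10 genes), and 1374 with the GC trend removed. The share of higher calls among called genes was 60.5%, and it became 44.5% with quantile normalization and 45.8% with the GC trend removed. CCN1 responded less in BEAS-2B than in H446 cells, with a difference of -0.84 on the log2 scale (interval -1.08 to -0.59, adjusted p 2.79e-04). AMOTL1 differed by 0.38 (interval 0.17 to 0.60, adjusted p 0.0143), since its values were 0.20 in BEAS-2B and -0.18 in H446. Both passed in all 20 other fits, and without irradiated BEAS-2B library 2 the differences were -0.77 and 0.45. CCN2, which passed in H446 and not in BEAS-2B, differed by -0.15 (interval -0.49 to 0.18, adjusted p 0.515), so that a difference between the lines was not shown. ANKRD1 differed by -0.32 (interval -0.65 to 0.01, adjusted p 0.141), and by -0.41 without BEAS-2B 10 Gy replicate 3 (adjusted p 0.049). AMOTL2 differed by -0.19 (interval -0.41 to 0.04, adjusted p 0.211), and by -0.38 with the GC trend removed (adjusted p 0.0102). AXL differed by 0.21 (interval -0.03 to 0.45, adjusted p 0.183), and passed without BEAS-2B control replicate 2 (0.31, adjusted p 0.0249) or 10 Gy replicate 3 (0.28, adjusted p 0.0499). Without irradiated BEAS-2B library 2 the differences were -0.06 for CCN2, -0.19 for ANKRD1, -0.26 for AMOTL2 and 0.16 for AXL, and none of these passed. The intervals of the effectors were -0.26 to 0.10 for YAP1, -0.21 to 0.14 for WWTR1 and -0.36 to 0.04 for TEAD1, and that of LATS2 was -0.25 to 0.17. The difference in response between H446 and A549 cells was not tested, and its values were 3.16 for CCN1, 2.43 for ANKRD1, 2.41 for CCN2 and 1.25 for AMOTL2.

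Before irradiation, the target genes and regulators were lower in H446 than in BEAS-2B cells. Of the 10 genes, 7 were lower and 1 was higher in unirradiated H446, against 45.9% and 35.2% of 13071 genes tested (81.1% in all). CCN2 differed the most among the 10, with a mean in BEAS-2B 8.50 times that in H446 and a log2 difference of -2.97 (SE 0.11, adjusted p 1.49e-14). ANKRD1 differed by -1.84 (SE 0.11, adjusted p 1.45e-11) and CCN1 by -1.82 (SE 0.08, adjusted p 2.40e-13). LATS2 differed by -1.73, AMOTL2 by -1.29, AXL by -1.27 and AMOTL1 by -0.94, each with an adjusted p of 6.50e-10 or less. TEAD1 was the gene that was higher in H446, by 0.42 (SE 0.07, adjusted p 1.19e-05). YAP1 differed by 0.05 (interval -0.07 to 0.18, adjusted p 0.432) and WWTR1 by 0.06 (interval -0.07 to 0.18, adjusted p 0.391). These 8 calls passed in all 14 other fits, and WWTR1 also passed without BEAS-2B control replicate 2 (0.13, adjusted p 0.0209).

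**Figure D3:**
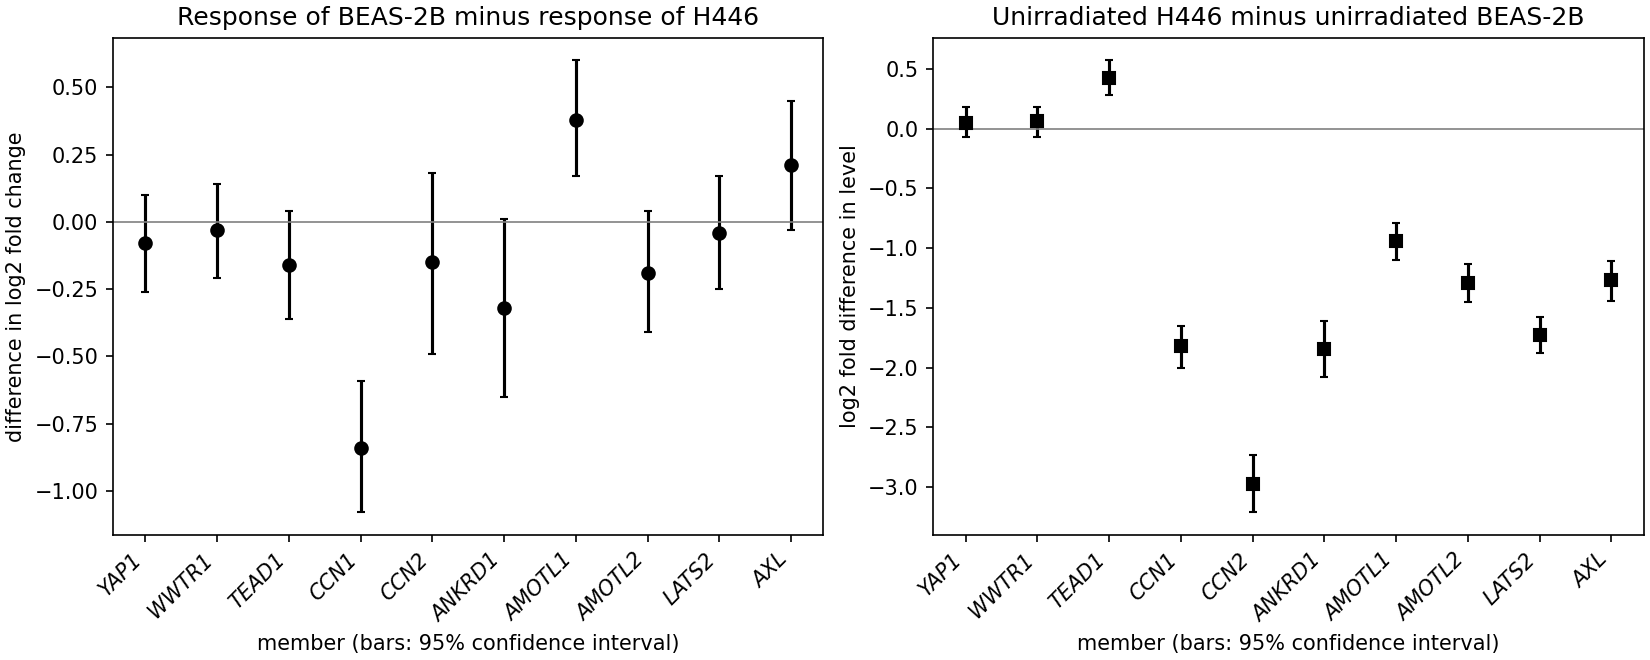
Differences between BEAS-2B and H446 cells on the log2 scale for each gene, with 95% confidence intervals from limma: in response to 10 Gy on the left, in the level of unirradiated cells on the right. The intervals of CCN1 and AMOTL1 lie apart from 0 on the left, and those of YAP1 and WWTR1 include 0 on both sides.

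Across the 18 libraries, some of the 10 genes varied together. The Pearson correlation of log2(FPKM + 1) was 0.99 between CCN2 and AMOTL2, 0.95 between CCN2 and LATS2, 0.85 between CCN1 and CCN2 and 0.81 between ANKRD1 and AXL. Other pairs of targets were less alike, at 0.13 between CCN1 and ANKRD1, 0.41 between CCN1 and AXL and 0.5 between CCN2 and ANKRD1. Between the coactivator genes and CCN1 the correlation was 0.27 for YAP1 and -0.71 for WWTR1, and between TEAD1 and AMOTL1 it was -0.79. These are descriptions over 18 libraries that fall into 3 lines, and the A549 values among them were used to select the group. Of 10513 genes with at least 5 FPKM in at least 3 libraries, those most like CCN1 in pattern were PIP5K1A (0.965), MKRN2 (0.954), BRD1 (0.951), CYP51A1 (0.946) and CDC34 (0.932). Among those most like ANKRD1 were RP9 (0.983), PPP1R15A (0.981), KLF7 (0.976) and NUAK1 (0.975). PPP1R15A, a phosphatase subunit of the stress response, had a mean of 94.1 FPKM in A549 controls and 34.9 FPKM in irradiated A549 cells, against 10.1 and 13.1 FPKM in H446. PIP5K1A, a lipid kinase, had 58.2 and 40.1 FPKM in A549 and 49.2 and 53.5 FPKM in H446. With any 1 library left out, the correlations of the genes most like CCN1 and ANKRD1 were between 0.918 and 0.986. Those among the 10 genes were not rerun in this way.

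Other genes of the pathway were described by list, beside all genes tested. PTPN14 is counted in both the target list and the list of kinases and scaffolds. The median log2 fold change of all genes was 0.00 in BEAS-2B, -0.00 in A549 and -0.03 in H446. Of 16 other targets of YAP and TAZ tested in H446, where 14.8% of genes tested were higher and 23.6% lower, 6 were higher and 1 was lower after irradiation (median 0.10). In A549, where 25.3% of genes tested were higher and 26.4% lower, 2 of these 16 were higher and 9 lower (median -0.13), and in BEAS-2B 0 of 15 passed (median 0.03). GADD45A, a DNA damage and growth arrest gene on this list, had 19.1, 18.9 and 18.8 FPKM in H446 controls and 23.9, 25.7 and 26.6 FPKM after irradiation (log2 fold change 0.40, SE 0.05, adjusted p 1.34e-04, and 0.173 in the fit of all 18 libraries). In A549 its log2 fold change was -0.53. In BEAS-2B it was 0.77 (adjusted p 0.306), with 53.4, 64.5 and 56.0 FPKM in the controls. The irradiated BEAS-2B libraries had 119.8, 55.6 and 145.8 FPKM, with library 2 the low one. In A549, CRIM1, a transmembrane binder of growth factors, had 98.9, 96.2 and 99.9 FPKM in the controls and 57.7, 64.3 and 63.7 FPKM after irradiation, a log2 fold change of -0.66. FJX1, also on the list, had a log2 fold change of -0.75 there, from 6.62 ± 0.86 to 3.50 ± 0.0907 FPKM (SD, n = 3 each). FJX1 was also the lower gene of this list in H446 (log2 fold change -0.25, adjusted p 0.0178).

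Of the Hippo kinases and scaffolds, 7 of 15 tested were higher and 1 was lower in irradiated H446 cells (median 0.10), 2 of 15 were higher and 5 lower in A549 (median -0.09), and 0 of 16 passed in BEAS-2B (median -0.05). In H446, MAP4K4, a kinase upstream of LATS, rose from 36.5 ± 0.669 to 45.7 ± 3.88 FPKM (SD, n = 3 each, log2 fold change 0.31, adjusted p 0.00187). MAP4K4 was also one of the higher genes in A549, with means of 50.6 and 68.9 FPKM (log2 fold change 0.44). TAOK3, a kinase of the TAO family, rose from 8.01 ± 0.179 to 10.2 ± 0.626 FPKM (SD, n = 3 each, log2 fold change 0.31, adjusted p 0.00216). The lower gene was TAOK2 of the same family, named after its values were seen. It fell from 17.3 ± 0.478 to 13.8 ± 0.514 FPKM (SD, n = 3 each, log2 fold change -0.31, adjusted p 7.51e-04 from limma). In A549, FRMD6, a scaffold at the cell membrane, had 38.5, 37.9 and 39.7 FPKM in the controls and 21.9, 23.3 and 22.9 FPKM after irradiation, a log2 fold change of -0.74. Of the other TEAD and VGLL genes, 1 of 5 was higher and 3 were lower in H446 (median -0.23), 2 were higher and 1 was lower in A549 (median -0.01), and 0 of 5 passed in BEAS-2B (median 0.04).

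Of the 4 other CCN genes, 1 or 2 were tested in each line. In H446, 1 of 2 tested was higher and 1 lower (median -0.04): CCN3 rose from 44.7 ± 1.24 to 51.2 ± 0.865 FPKM and CCN5 fell from 44.4 ± 2.41 to 36.7 ± 3.88 FPKM (SD, n = 3 each), both named after their values were seen. In A549, 1 of 2 was higher (median 0.26), and it was CCN4, named likewise, at 4.24 and 6.22 FPKM. In BEAS-2B 0 of 1 passed (-0.10). Of the targets of serum response factor, 2 of 8 tested were higher in H446 (median 0.02), 1 was higher and 7 were lower of 8 in A549 (median -0.30), and 0 of 8 passed in BEAS-2B (median 0.16). VCL, which encodes the adhesion protein vinculin, rose in H446 from 92.5 ± 2.57 to 118 ± 2.90 FPKM (SD, n = 3 each; log2 fold change 0.34, adjusted p 7.68e-05). ACTA2, smooth muscle actin, was the gene that was higher in A549, with 13.9, 14.7 and 14.6 FPKM in the controls and 46.5, 44.0 and 47.3 FPKM after irradiation, a log2 fold change of 1.61. In BEAS-2B all irradiated libraries also lay above the controls for ACTA2, with means of 3.04 and 5.86 FPKM. The log2 fold change there was 0.76 and did not pass (adjusted p 0.241). Among these other lists, the most abundant genes were TPM1, a tropomyosin, at 268 ± 11.2 FPKM in BEAS-2B and 493 ± 6.29 FPKM in A549 controls, and FLNA, a filamin, at 314 ± 5.77 FPKM in H446 controls (SD, n = 3 each).

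**Figure D4:**
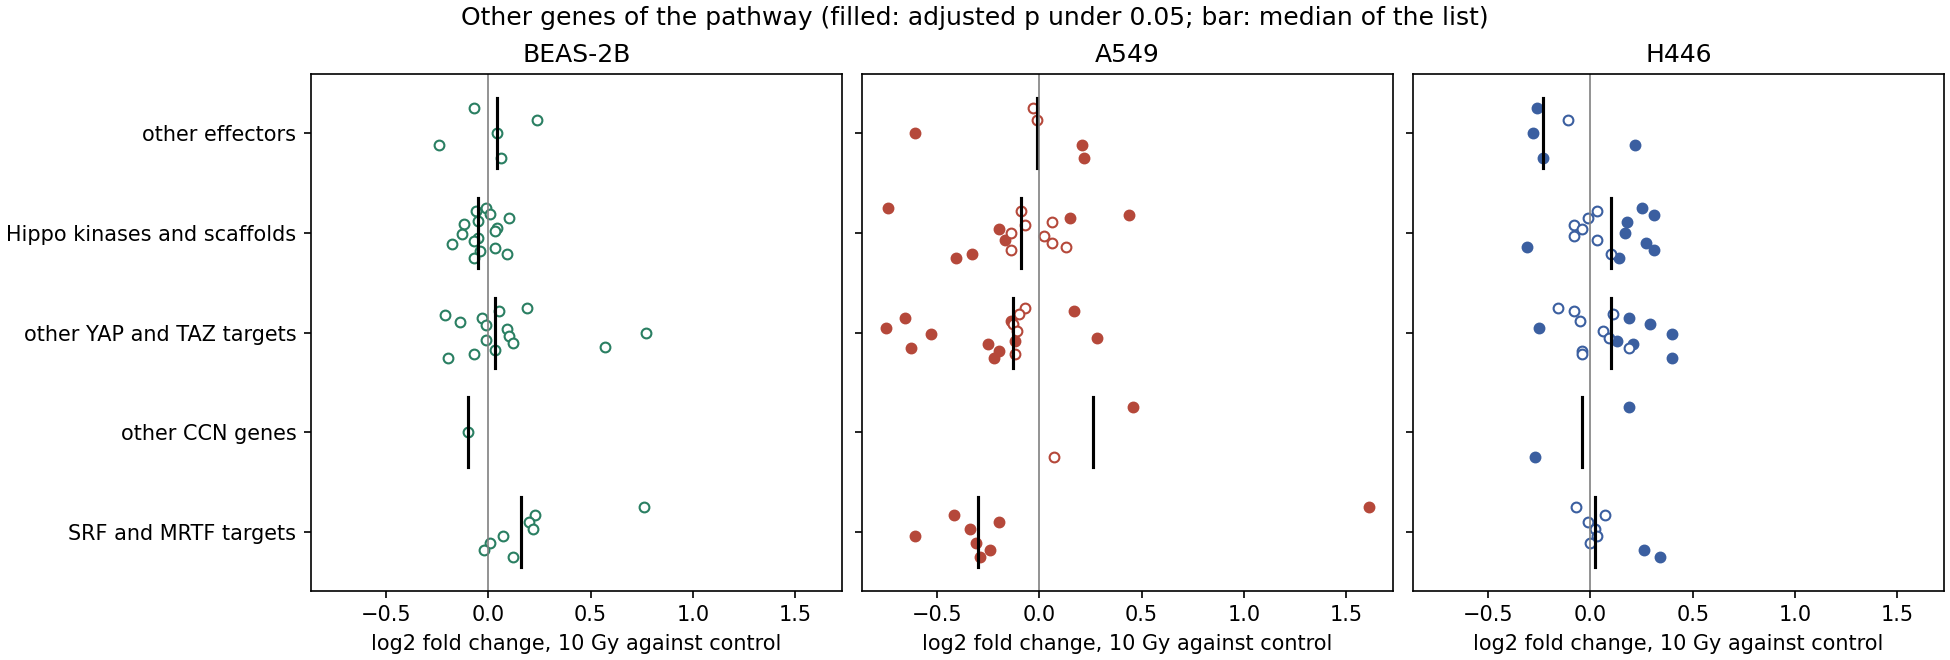
Log2 fold change after 10 Gy (horizontal axis) of the other genes of the pathway in each line, 1 point per gene and 1 row per list, with calls by limma (adjusted p under 0.05) filled and the median of the list as a bar. The list of other YAP and TAZ targets has a median of -0.13 in A549 and 0.10 in H446, and no point is filled in BEAS-2B.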

How the data were processed

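Poly(A) RNA of 18 libraries was sequenced by the authors on a BGISEQ-500, with 50 bases per single-end read. FPKM is taken as the unit of the deposited values, which the authors computed. It was inferred from the values, since their totals varied by 3.65% between libraries (coefficient of variation) and their sums weighted by transcript length by 0.71%. The submitters' processing notes name HISAT2 2.0.4, Bowtie2 2.2.5, RSEM 1.2.12 and hg38. Genes were matched by Entrez number (18181 of 18475).

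Computed here were limma 3.58.1 fits (R 4.3.3; lmFit, and eBayes with a trend) on log2(FPKM + 1) in each line, and 1 fit of 18 libraries for genes kept in any line. Replicate numbers did not enter as pairs. The 10 genes and the lists were chosen with earlier results of these data known. Named from the other lists are, per line, up to 4 called genes with the largest absolute log2 fold change, groups that do not overlap and a mean of at least 5 FPKM in a group, the most abundant gene of these lists, and the 5 genes closest in pattern to CCN1 and to ANKRD1, of which 1 is not reported here, as is 1 cell type marker. Genes named outside this rule are marked. Removal of each library's loess trend on GC content (span 0.5, GENCODE 29 transcripts) was added after seeing the data. The 15 other fits in a line were this, quantile normalization, rescaling to equal totals, no filter, 1 FPKM in every library, a pseudocount of 0.1, a block for the replicate number, no trend, all 18 libraries in 1 fit, and 6 fits with 1 library left out. Comparisons between lines had 20 (response) and 14 (unirradiated) other fits, without the 18-library alternative. Plots used matplotlib 3.10.9, and summaries numpy 2.4.6 and pandas 2.3.3 under Python 3.11.15.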

Additional observations from a re-analysis of the deposited data

Results flagged for a closer look

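The radiation response of BEAS-2B minus that of H446, tested in 1 limma fit of 18 libraries, differed for CCN1 (-0.84 on the log2 scale) and AMOTL1 (0.38). Among the genes of other lists that the report names for their fold change, it differed for ACTA2 (0.82, adjusted p = 0.0014), FRMD6 (-0.31, adjusted p = 0.0081) and TAOK3 (-0.35, adjusted p = 0.0132). FRMD6 no longer passed with the GC trend removed (-0.17, adjusted p = 0.101).

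For some genes, all irradiated libraries lay on 1 side of the controls in A549 and on the opposite side in H446. The difference in response between these lines was not tested, and A549 values were used to select the first 7 of these genes. The response of H446 minus that of A549 was 3.16 for CCN1, 2.43 for ANKRD1, 2.41 for CCN2, 1.25 for AMOTL2, 0.59 for LATS2, 0.46 for TEAD1 and -0.48 for AMOTL1. Among the genes of other lists that the report names for their fold change, it was 0.99 for FRMD6, 0.94 for GADD45A, 0.85 for CRIM1 and 0.63 for VCL. Further genes of these lists also lay on opposite sides and are not described.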

How the results depend on the processing

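No called result reversed in direction under the alternatives run. In H446, CCN1, CCN2 and AMOTL2 passed under every alternative, and the fits in which TEAD1, ANKRD1 and AMOTL1 lost their calls at 0.05 are given in the report. An adjusted p under 0.01 left 2529 genes and 3 of the 10 in H446, and 1208 genes and 1 of the 10 for the response of BEAS-2B minus H446. For that response, 1374 genes passed with the GC trend removed, an alternative chosen after seeing the data. In BEAS-2B, where 0 genes passed, 1 passed with no filter and 842 with all 18 libraries in 1 fit. With the replicate block, 439 genes passed in BEAS-2B (344 higher) and 1 of the 10, CCN2 (0.35, adjusted p = 0.0484). The correlation of deviations between libraries with the same number was -0.13, 0.32 and 0.31 in BEAS-2B. It was 0.01, -0.05 and -0.10 in A549 and 0.19, 0.01 and 0.08 in H446. Between libraries with different numbers it ran from -0.5 to 0.38 in BEAS-2B, -0.03 to 0.08 in A549 and -0.18 to 0.11 in H446. With 3 libraries per group, these values cannot tell whether libraries of the same number were paired. Leaving out 1 library gave between 0 and 233 genes in BEAS-2B, 3201 and 4709 in H446 (3 to 6 of the 10), 5381 and 5713 in A549, 1811 and 4532 for the response of BEAS-2B minus H446 (2 to 4 of the 10) and 10246 and 10471 for unirradiated H446 minus BEAS-2B (8 to 9 of the 10). The lowest H446 counts of 3 were without H446 control replicate 3 and without 10 Gy replicate 3. For the response, 1811 was without BEAS-2B control replicate 1 and 4532 without BEAS-2B 10 Gy replicate 3. The causes of these shifts were not tested. A pseudocount of 0.1 moved the A549 values of CCN2 (-1.99), ANKRD1 (-2.20), LATS2 (-0.50) and AMOTL1 (0.36) by more than the spread between replicates. It also moved ANKRD1 in H446 from 0.34 to 0.47. For unirradiated H446 minus BEAS-2B, ANKRD1 (-1.84) reached -2.23 and LATS2 (-1.73) reached -1.97 over the 14 other fits. No scaling moved the median of all genes by as much as 0.1. FPKM values hold no read depth, so low values such as ANKRD1 in H446 cannot be given a counting error.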
